A study of Danio rerio with 15 samples.

Results

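The transcripts described here are zebrafish *unc45b* (ENSDART00000002164.9), *hspa4b* (ENSDART00000002469.7) and *trim101* (ENSDART00000002398.7). They were taken by identifier as 3 of the 46488 transcripts in the table of estimated counts. Their names come from a supplementary list of the study, which holds transcripts it selected for a dose trend in these same libraries. A trend test on them therefore gives no independent support. The list writes unc45b_t2 and hspa4b_g2t1, with suffixes because it adjusted names that transcripts or genes share. The suffixes are left out here, so each plain name stands for a single transcript and not for a whole gene. Embryos of the AB strain spent 120 h in fish water without solvent that held the plasticiser dibutyl phthalate (DBP) at 0, 5, 10, 50 or 100 μg/l. Each library was made from a pool of 10 whole embryos, with 3 libraries at each dose. The study kept embryos in 5 beakers per dose, extracted 5 pools and sequenced the 3 with RNA of higher quality. The control labelled replicate B was left out of the tests, which leaves 2 controls and 12 exposed libraries.

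*unc45b* encodes a cochaperone of Hsp90 that carries a UCS domain and helps the myosin heavy chain of striated muscle to fold. Zebrafish mutants of *unc45b* (*steif*) fail to assemble ordered myofibrils in skeletal and heart muscle. *hspa4b* encodes an Hsp70-family protein of the Hsp110 branch, whose members release ADP from Hsp70 so that its substrate cycle can go on. *trim101* belongs to the tripartite motif family, defined by a RING finger, B-boxes and a coiled coil, in which many members are E3 ubiquitin ligases.

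Along the dose-gradient, *unc45b* was the only one of the 3 with an adjusted p-value under the threshold in edgeR, a call that was lost in 21 of 26 alternative fits. With DESeq2 all 3 passed, as did 3486 of the 32350 tested transcripts, against 295 in edgeR. *unc45b* had its highest values at 100 μg/l, on average 62.3 CPM against 31.6 CPM in the controls. *trim101* had higher values at 50 and 100 μg/l than at 0 and 5 μg/l, as was the case for 2.97% of the tested transcripts. Its trend did not pass, and 10 μg/l replicate A was as high (54.6 CPM). *hspa4b* stayed between 164 and 193 CPM in the 14 libraries used. In the control left out it had 145 CPM, scaled over all 15 libraries. The libraries are of whole embryos, so more cells of a type and more RNA per cell cannot be told apart.

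The 14 libraries used held between 17.2 and 28 M assigned counts (M, mega), with a median of 23.5 M. The values below are CPM, counts per M after TMM scaling (a scaling that aligns libraries on their shared transcripts). Of the 46488 transcripts, 32350 passed the filter on low counts, all 3 described here among them. The first principal component of these transcripts, on the log2(CPM + 0.5) scale, held 30.7% of the variance and did not follow the doses in order. On it, 10 μg/l replicate C (−47.5 units) and 100 μg/l replicate E (−47.6 units) lay within the range of the libraries at 0 and 5 μg/l (−81.1 to −31.6 units), whereas the other 7 libraries at 10, 50 and 100 μg/l lay between 14.3 and 71.9 units.

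In TPM, which is scaled for transcript length and can be set between transcripts, *hspa4b* was the most abundant of the 3. Its mean over the 14 libraries was 22.9 TPM (range 20.3 to 24.7), above 93.1% of the 39890 transcripts with a value over 0. *trim101* averaged 14.3 TPM (10.6 to 17.3), above 90.1% of them, and *unc45b* averaged 5.17 TPM (3.22 to 9.05), above 78.7%. The mean TPM of *hspa4b* was 1.60 times that of *trim101* and 4.43 times that of *unc45b*. The ranges of the 3 did not overlap, so this order held in each of the 14 libraries.

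*unc45b*, the myosin chaperone, had 33.1 and 30.0 CPM in the controls D and E. At 5 μg/l its values were 35.4, 35.2 and 33.8 CPM in replicates A, B and E. At 10 μg/l they were 28.0, 23.8 and 43.9 CPM in replicates A, B and C. The 10 μg/l libraries thus held both the lowest value of all and one above every library at 0 and 5 μg/l. At 50 μg/l the values were 34.2, 42.6 and 43.1 CPM in replicates A, B and D, and at 100 μg/l they were 49.3, 66.4 and 71.1 CPM in replicates A, C and E. Each library at 100 μg/l lay above each of the other 11, as was the case for 1.35% of the tested transcripts.

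**Figure D1:**
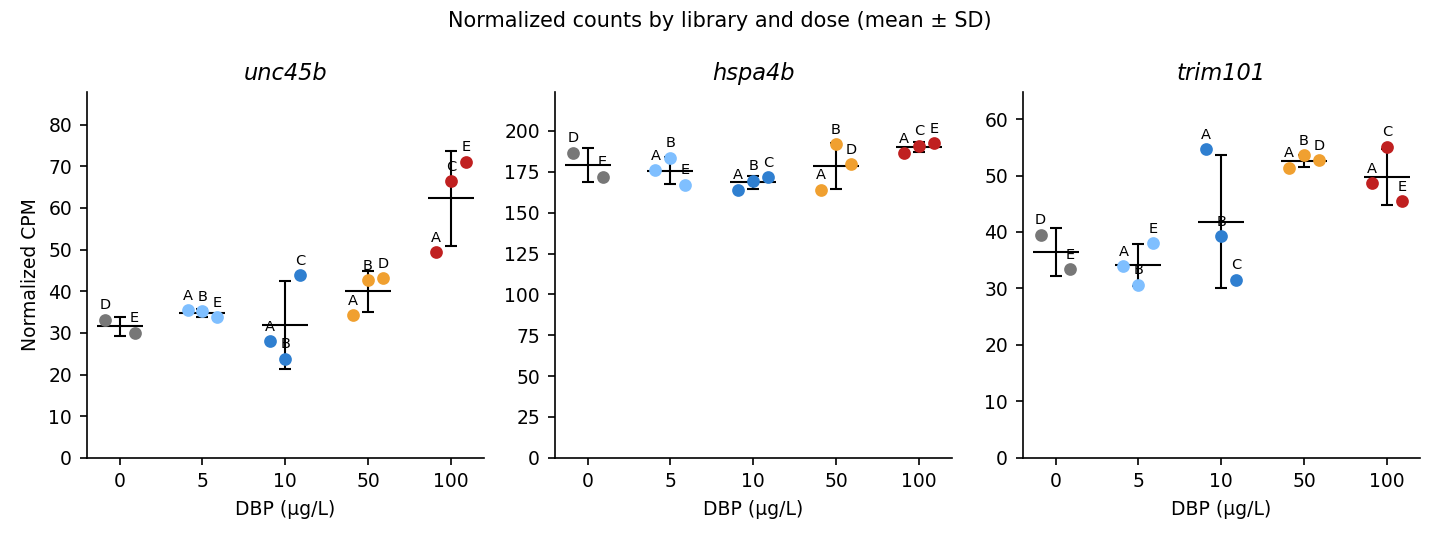
Normalized CPM (vertical axes, from 0) of *unc45b*, *hspa4b* and *trim101* against the DBP dose in μg/l. Points are libraries with their replicate letter, and bars are the mean ± SD of 2 controls or 3 exposed libraries. *unc45b* is highest in the 3 libraries at 100 μg/l (49.3 to 71.1 CPM), and *hspa4b* stays between 164 and 193 CPM. *trim101* is above 45 CPM in the 6 libraries at 50 and 100 μg/l and in 10 μg/l replicate A (54.6 CPM).

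The mean of *unc45b* was 31.6 ± 2.21 CPM in the controls (SD, n = 2), 34.8 ± 0.896 CPM at 5 μg/l, 31.9 ± 10.6 CPM at 10 μg/l, 40.0 ± 4.98 CPM at 50 μg/l and 62.3 ± 11.5 CPM at 100 μg/l (SD, 3 libraries each). For the quadratic trend on dose ranks the adjusted p-value was 0.0493 (edgeR quasi-likelihood test, Benjamini-Hochberg over all 32350 transcripts; unadjusted p = 0.000427), with a fitted difference between 100 and 0 μg/l of 0.83 on the log2 scale. It held place 280 in order of p, where 295 transcripts (0.912%) passed, so it lay just inside the threshold. Of the 14 fits that left out one library, 13 gave an adjusted p-value above 0.05 (0.0586 to 0.153) and only the one without 10 μg/l replicate C (0.0339) did not. Of the 2 terms of the trend, the linear one had an adjusted p-value of 0.0548 and the quadratic one of 0.235 (edgeR).

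Against the 2 controls, the 95% intervals of *unc45b* included 0 at the lower doses. The log2 fold change was 0.14 at 5 μg/l (−0.37 to 0.65), 0.02 at 10 μg/l (−0.50 to 0.53) and 0.34 at 50 μg/l (−0.18 to 0.86), with the same controls in each. The value at 10 μg/l rested on single libraries, with −0.29 without replicate C and 0.19 without replicate B. At 50 μg/l all 3 libraries lay above both controls, as did those of 22% of the tested transcripts.

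At 100 μg/l *unc45b* was 1.97-fold the controls, a log2 fold change of 0.98 (standard error 0.24, 95% interval 0.45 to 1.51). Its unadjusted p-value was 0.00178 and its adjusted p-value 0.208 (edgeR), so the difference did not pass the correction in edgeR, although 3 of 3 libraries lay above both controls. With DESeq2 it passed, at a log2 fold change of 0.97 and an adjusted p-value of 0.00364, and over all 24 alternatives of this comparison the adjusted p-value lay between 0.00364 and 0.715. Passing transcripts were few at this dose, 29 (0.0896%) after adjustment, and 6.28% were higher with an unadjusted p-value under 0.05. Every library at 100 μg/l lay above both controls for 15% of the transcripts. Between the last doses, 100 against 50 μg/l, the difference was 0.64 on the log2 scale (standard error 0.21, adjusted p = 0.726, edgeR; unadjusted p = 0.0107).

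The spread of *unc45b* between pools differed from dose to dose. At 10 μg/l the coefficient of variation was 33.2%, against 3.62% from counting alone, and at 5 μg/l it was 2.57%, against 3.49% from counting. Within doses, its deviations from the dose mean ran against the first principal component (r = −0.82 over 14 libraries, values centred by dose) and with the total counts (r = 0.66), while over all libraries uncentred the values were −0.09 and 0.21. With the second component, which held 11.7% of the variance, *unc45b* had an r of 0.88 uncentred and 0.65 centred by dose, *hspa4b* 0.58 and 0.11, and *trim101* 0.51 and −0.11. The 3 libraries at 100 μg/l had the highest scores on this component (40.6, 51.1 and 59.7 units), against −44.7 to −1.56 units at 0 and 5 μg/l. The uncentred values therefore hold the difference between doses too. All these measures come from the same libraries, with the depth and scaling of each, and the part of depth or of either component in these values was not tested. The library with the highest *unc45b* value, 100 μg/l replicate E, also had the highest total, 28 M, and the lowest of its dose, replicate A, had the lowest total of all, 17.2 M.

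*trim101*, of the tripartite motif family, had 39.5 and 33.4 CPM in the controls D and E. Its values were 33.9, 30.7 and 38.0 CPM at 5 μg/l (A, B, E), and 54.6, 39.3 and 31.5 CPM at 10 μg/l (A, B, C). At 50 μg/l they were 51.4, 53.6 and 52.7 CPM (A, B, D), and at 100 μg/l 48.7, 55.1 and 45.5 CPM (A, C, E). Each of the 6 libraries at 50 and 100 μg/l lay above each of the 5 at 0 and 5 μg/l, as was the case for 2.97% of the tested transcripts. The 10 μg/l libraries spanned both ranges.

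The mean of *trim101* was 36.5 ± 4.27 CPM in the controls (SD, n = 2), 34.2 ± 3.70 CPM at 5 μg/l, 41.8 ± 11.8 CPM at 10 μg/l, 52.5 ± 1.12 CPM at 50 μg/l and 49.7 ± 4.89 CPM at 100 μg/l (SD, 3 libraries each). Its trend had an adjusted p-value of 0.133 (edgeR; unadjusted p = 0.0125), above the threshold, with a fitted difference of 0.63 on the log2 scale between 100 and 0 μg/l. An unadjusted p-value under 0.05 was reached by 24.4% of all tested transcripts, and *trim101* was within the first 9.37% in order of p. The linear term alone had an adjusted p-value of 0.0811 and the quadratic term of 0.993 (edgeR).

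Against the controls, *trim101* had a log2 fold change of −0.09 at 5 μg/l (95% interval −0.51 to 0.33) and of 0.20 at 10 μg/l (−0.23 to 0.62), and the value at 10 μg/l was −0.04 without replicate A. At 50 μg/l it was 0.53, or 1.44-fold (standard error 0.19, 95% interval 0.10 to 0.96, adjusted p = 0.273, edgeR). At 100 μg/l it was 0.45, or 1.36-fold (standard error 0.19, 95% interval 0.02 to 0.88, adjusted p = 0.430, edgeR). Neither of these passed after adjustment. In both, 3 of 3 exposed libraries lay above both controls. The same held for 22% of the tested transcripts at 50 μg/l and for 15% at 100 μg/l. At 50 μg/l 17 transcripts (0.0526%) passed, and 8.18% were higher with an unadjusted p-value under 0.05. Between 100 and 50 μg/l, *trim101* differed by −0.08 on the log2 scale (95% interval −0.46 to 0.30).

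**Figure D2:**
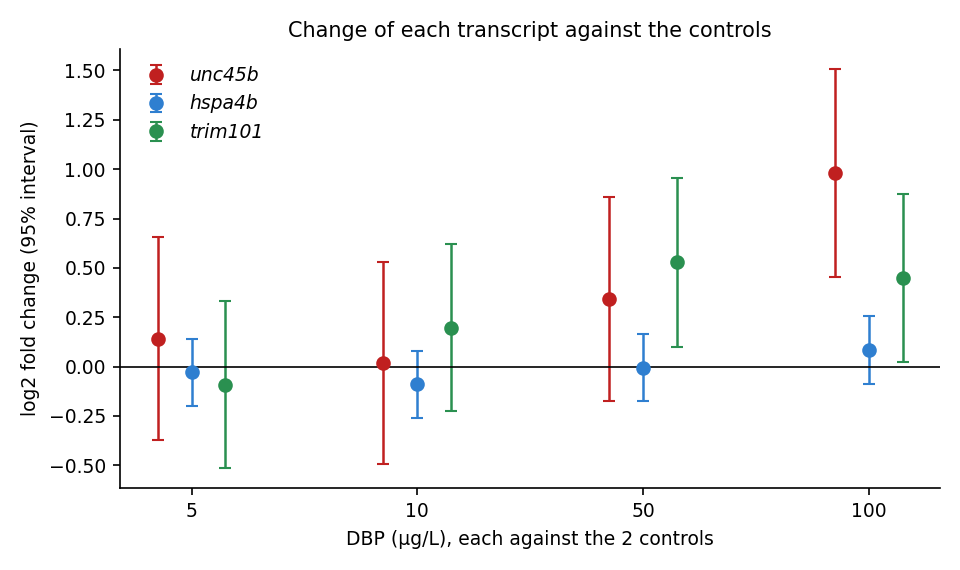
Log2 fold change of each dose against the 2 controls (vertical axis), by DBP dose in μg/l, for *unc45b* (red), *hspa4b* (blue) and *trim101* (green). Points are edgeR estimates and bars 95% intervals. The intervals leave out 0 for *unc45b* at 100 μg/l (0.45 to 1.51) and for *trim101* at 50 μg/l (0.10 to 0.96) and 100 μg/l (0.02 to 0.88), before any adjustment over transcripts, and the *hspa4b* intervals include 0 at every dose.

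*trim101* lay with the first principal component, where *unc45b* within doses lay against it. Over the 14 libraries r was 0.70 uncentred and 0.50 with values centred by dose. The 10 μg/l library with the highest *trim101* value, replicate A, had a score of 64.9, and the one with the lowest, replicate C, had −47.5. Replicate B of that dose had a higher score than replicate A, 71.9, but a lower *trim101* value, 39.3 CPM against 54.6 CPM. The part of this component in the *trim101* values was not tested.

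*hspa4b*, the Hsp110-type exchange factor, had 187 and 172 CPM in the controls D and E. Its values were 176, 184 and 167 CPM at 5 μg/l (A, B, E), 164, 170 and 172 CPM at 10 μg/l (A, B, C) and 164, 192 and 180 CPM at 50 μg/l (A, B, D). At 100 μg/l they were 187, 191 and 193 CPM (A, C, E). The 3 libraries at 100 μg/l lay close together near the top of the range. One of them, replicate A, was level with control D, at 187 CPM each.

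The mean of *hspa4b* was 179 ± 10.4 CPM in the controls (SD, n = 2), 176 ± 8.29 CPM at 5 μg/l, 168 ± 3.96 CPM at 10 μg/l, 179 ± 13.9 CPM at 50 μg/l and 190 ± 3.15 CPM at 100 μg/l (SD, 3 libraries each). The trend had an adjusted p-value of 0.234 (edgeR; unadjusted p = 0.0703). Against the controls its log2 fold change was −0.03 at 5 μg/l (95% interval −0.20 to 0.14), −0.09 at 10 μg/l (−0.26 to 0.08) and −0.01 at 50 μg/l (−0.18 to 0.17). At 100 μg/l it was 0.08 (standard error 0.08, 95% interval −0.09 to 0.26, adjusted p = 0.705, edgeR), an interval that held changes from a small fall to a rise of 0.26. After adjustment 1 transcript (0.00309%) passed at 5 μg/l and 13 (0.0402%) at 10 μg/l, and none of the 3 described here passed at any single dose in edgeR.

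By the estimated dispersion, *hspa4b* had the smallest spread between pools of the 3. The square root of its dispersion (edgeR's estimate of the coefficient of variation beyond counting) was 0.0938, and 1.39% of the tested transcripts had a lower dispersion. The same value was 0.165 for *trim101* and 0.192 for *unc45b*, with 25.8% and 34.7% of transcripts below them. These estimates are drawn towards transcripts of like abundance, so the shares do not rank measured spread alone. For *hspa4b* the estimate was above the measured value at each dose. The coefficient of variation of *hspa4b* was 1.66% at 100 μg/l, where counting alone gives 1.52%, and between 2.35% and 7.79% at the other doses, where counting gives 1.44% to 1.63%. The intervals of *hspa4b* against the controls were also the narrowest of the 3.

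Salmon splits a read that matches more than one transcript among them, which leaves fractions in the deposited estimated counts, and these fractions show with which rows a transcript shared reads. The counts of *trim101* (1290 bases) were whole in 15 of 15 libraries, so no division of its reads was visible. For *unc45b* (2805 bases), the counts summed to a whole number (within 0.005) with those of ENSDART00000131171.3, of 240 bases, in 15 of 15 libraries. The next best of the 46487 transcripts searched did so in 3. For *hspa4b* (2523 bases), the sum with ENSDART00000185615.1 (648 bases) and ENSDART00000188155.1 (2523 bases) was whole in 14 of 15 libraries, and it was the only such triple found. The exception was the control left out, replicate B.

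*unc45b* took between 93.3% and 98.6% of the counts of its pair in the 14 libraries. *hspa4b* took between 81.4% and 90.2% of its triple, ENSDART00000185615.1 between 6.07% and 14.2%, and ENSDART00000188155.1 between 3.12% and 9.38%. The division was therefore not the same in every library, and a level of *hspa4b* alone is uncertain by that share. In TPM the partners were not all minor. ENSDART00000131171.3 had 7.54 to 58.7 TPM, against 3.22 to 9.05 TPM for *unc45b*. Its TPM rest on 10.7 to 114 counts per library, 1.38% to 6.73% of the pair, and on effective lengths of only 16 to 23.2 bases. They therefore do not show that it was more abundant than *unc45b*. ENSDART00000185615.1 had 9.32 to 28.1 TPM and ENSDART00000188155.1 0.889 to 2.34 TPM, against 20.3 to 24.7 TPM for *hspa4b*. With the counts summed over the pair, *unc45b* had a trend with an adjusted p-value of 0.0557 (edgeR), above the threshold, and a log2 fold change of 0.96 at 100 μg/l (standard error 0.25). Summed over the triple, *hspa4b* had 220 ± 5.80 CPM at 100 μg/l (SD, n = 3), against 211 ± 14.3 CPM in the controls (SD, n = 2), with a trend at an adjusted p-value of 0.461 (edgeR). These sums were chosen after the data were seen.

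**Figure D3:**
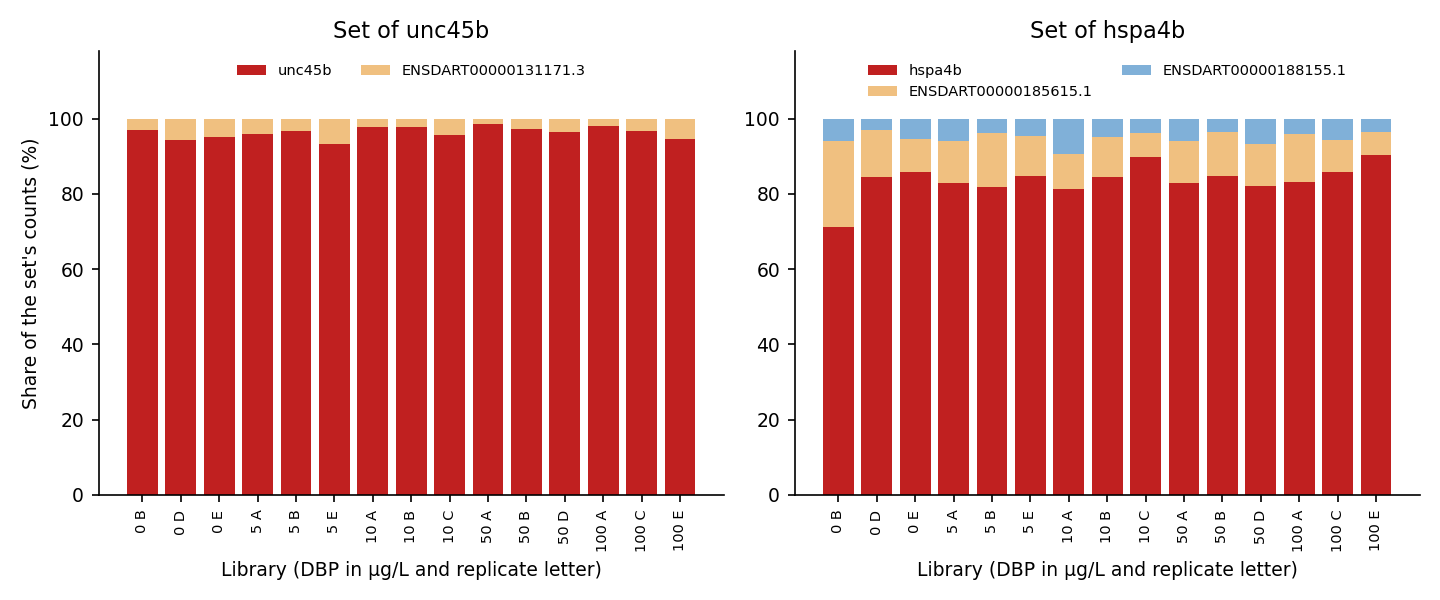
Share in % (vertical axes, from 0) of each transcript in the counts of the set that shares reads with *unc45b* (left) and *hspa4b* (right), in each of 15 libraries, named by DBP dose in μg/l and replicate letter. *unc45b* holds 93.3% to 98.6% in the 14 libraries used, and *hspa4b* 81.4% to 90.2%, against 71.1% in control replicate B.

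None of the partners passed the trend test. ENSDART00000131171.3 had only 10.7 to 114 counts per library, with 0.937, 2.35 and 4.07 CPM at 100 μg/l, against 2.00 and 1.52 CPM in the controls (trend adjusted p = 0.390, edgeR). ENSDART00000185615.1 had 28.3, 19.2 and 13.0 CPM at 100 μg/l, against 27.2 and 17.6 CPM in the controls (adjusted p = 0.922, edgeR). ENSDART00000188155.1, as long as *hspa4b*, had 9.43, 12.5 and 7.88 CPM at 100 μg/l, against 6.89 and 10.9 CPM in the controls (adjusted p = 0.619, edgeR). For all of them the exposed and control values overlapped.

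The TPM values rest on effective lengths, which Salmon estimates for each library, and these differed along the gradient for the short partners. For ENSDART00000185615.1 the effective length was 366 to 417 bases in the 9 libraries at 10, 50 and 100 μg/l, against 328 to 347 bases in the 5 at 0 and 5 μg/l. The share of all transcripts whose effective lengths separate between these doses was not counted. The separation is therefore not shown to be particular to this transcript. For ENSDART00000131171.3 it was 17.2 to 23.2 bases against 16 bases in all 5. The effective lengths of *unc45b* (2307 to 2359 against 2271 to 2314 bases), *hspa4b* (2291 to 2377 against 2259 to 2315 bases) and *trim101* (880 to 907 against 875 to 897 bases) overlapped between these doses. What part of any difference between doses goes with these lengths was not tested.

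On the TPM scale, *unc45b* averaged 7.63 ± 1.58 TPM at 100 μg/l (SD, n = 3), against 4.26 ± 0.0182 TPM in the controls (SD, n = 2). *trim101* averaged 15.8 ± 0.877 TPM at 100 μg/l, against 12.5 ± 0.630 TPM in the controls. *hspa4b* averaged 23.2 ± 1.24 TPM at 100 μg/l, against 24.3 ± 0.220 TPM in the controls, so its small difference had the opposite sign to that in CPM. Its log2 fold change at 100 μg/l was −0.06 with limma on log2(TPM + 1), where the adjusted p-value was 0.782. TPM carries no TMM scaling, and the median difference of all transcripts at 100 against 0 μg/l was −0.048 on this scale, against 0 in the counts. The part of scaling in the *hspa4b* difference was not tested.

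Over the 14 libraries, the pair of *unc45b* and *hspa4b* had the highest correlation of the 3 pairs in CPM. On log2(CPM + 0.5), Pearson's r was 0.72 (permutation p = 0.00261, adjusted over 3 pairs 0.00783) and Spearman's rho 0.66 (permutation p = 0.0116, adjusted 0.0347), both two-sided. The study listed all 3 transcripts for a dose trend, so a shared trend was in the choice. The permutations moved libraries across doses, so the p-values of all 3 pairs score that trend too. They give no independent support. Without the 2 libraries farthest from the median of *unc45b*, 100 μg/l replicates C and E, r was 0.57 over 12 libraries (permutation p = 0.0530). Without replicate E alone it was 0.66 (permutation p = 0.0123), and without replicate C alone 0.68 (permutation p = 0.00855). Leaving out both also narrows the range of *unc45b*. Within the 11 libraries below 100 μg/l r was 0.49 (permutation p = 0.129), and with values centred by dose it was 0.46 (0.35 to 0.60 with each library left out in turn). With the counts summed over the sets that share reads, r was 0.44 (permutation p = 0.119). On log2(TPM + 1) it was 0.33 (permutation p = 0.251).

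**Figure D4:**
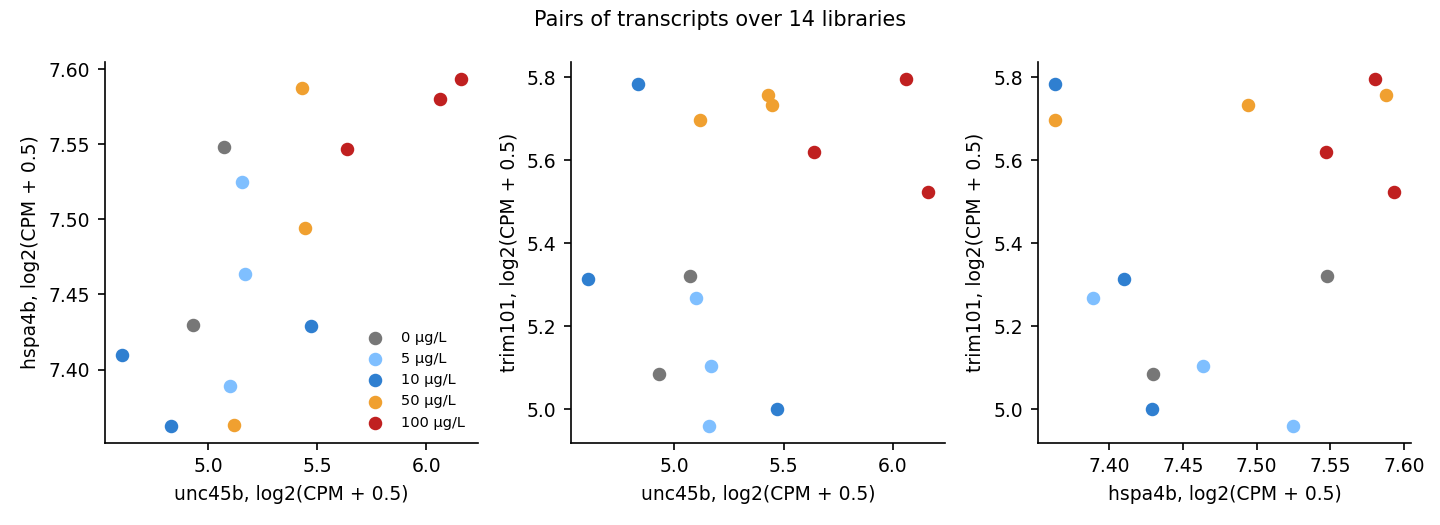
Log2(CPM + 0.5) of each pair of transcripts over the 14 libraries, coloured by DBP dose, with *unc45b* on the horizontal axis of the left and middle panels and *hspa4b* on that of the right. The 3 libraries at 100 μg/l (dark red) stand at the right of the *unc45b* axis. Pearson's r is 0.72 for *unc45b* with *hspa4b*, 0.34 for *unc45b* with *trim101* and 0.19 for *hspa4b* with *trim101*.

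*unc45b* and *trim101* had an r of 0.34 (permutation p = 0.239, adjusted 0.358) and a rho of 0.21 (permutation p = 0.471, adjusted 0.541). Without the 2 libraries farthest from the median of *unc45b* r was 0.16 (permutation p = 0.607). Centred by dose it was −0.39, and this sign rested on 10 μg/l replicate C, which had the most *unc45b* and the least *trim101* of its dose, since the centred r was 0.29 without it. Without any one of the others it stayed negative, the lowest being −0.54. *hspa4b* and *trim101* had an r of 0.19 (permutation p = 0.498, adjusted 0.498) and a rho of 0.18 (permutation p = 0.541, adjusted 0.541). Without the 2 libraries farthest from the median of *hspa4b*, 10 μg/l replicate A and 50 μg/l replicate A, r was 0.61 (permutation p = 0.0372), and centred by dose it was −0.20. On log2(TPM + 1) the direction turned, with an r of −0.67 (permutation p = 0.00897), the largest in size of the 3 pairs on that scale.

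Among the 26174 other transcripts with a mean of at least 1 CPM, the ones most like each of the 3 were other transcripts, which the tables used here do not name. ENSDART00000004756.12 was the most like *unc45b* (r = 0.95), and the next 2 had an r of 0.93. ENSDART00000110416.5 was the most like *hspa4b* (r = 0.88), and the next 2 had 0.87 and 0.85. ENSDART00000104298.5 was the most like *trim101* (r = 0.95), and the next 2 had 0.94 each. Seen from *unc45b*, *hspa4b* held place 519 (1.98% of transcripts had a higher r) and *trim101* place 5272 (20.1%). Seen from *hspa4b*, *unc45b* held place 158 (0.6%). These values are a description over 14 libraries. All transcripts were measured in the same libraries, so differences in dose, depth and scaling between libraries are common to them.

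**Figure D5:**
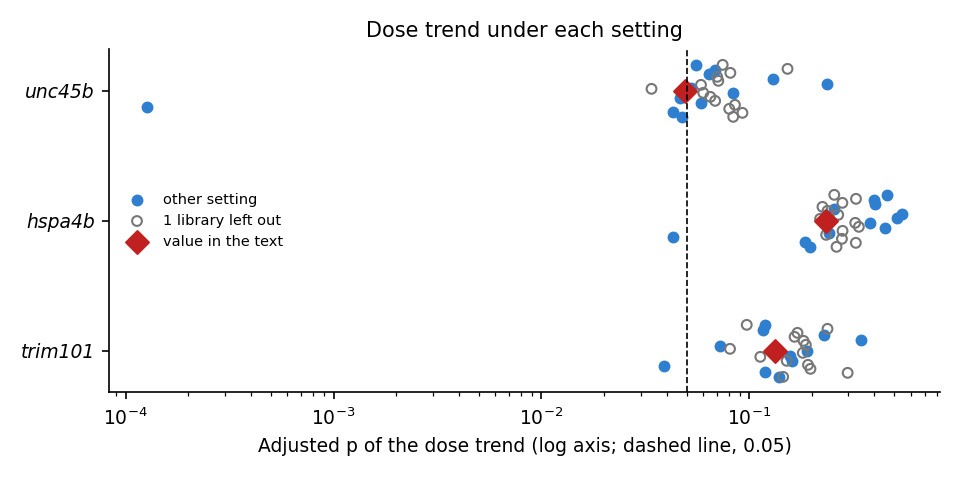
Adjusted p-value of the dose trend (horizontal log axis) of *unc45b*, *hspa4b* and *trim101* under each setting. The diamond is the value given in the text, filled points are other settings, open points leave out 1 library, and the dashed line is 0.05. For *unc45b* the diamond (0.0493) lies at the line and 5 of 26 other values lie below it, and 1 value each does so for *hspa4b* (0.0429) and *trim101* (0.0390), both from DESeq2.

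The control that was left out, replicate B, was not apart from the other 2 for *trim101*, with 36.3 CPM scaled over all 15 libraries, against 39.5 and 33.5 CPM in controls D and E on the same scale. For *unc45b* it had 34.8 CPM, against 33.2 and 30.0 CPM. For *hspa4b* it had 145 CPM, against 187 and 172 CPM, the lowest of all 15. There *hspa4b* took 71.1% of the counts of its set, against 81.4% to 90.2% in the 14 libraries used. The part of this division of reads in the low value was not tested. With all 15 libraries *unc45b* kept an adjusted p-value under the threshold (0.0467, edgeR), and with replicate B in place of replicate D, which the labels mark as the outlier, it did not (0.0839, edgeR).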

How the data were processed

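Poly-A RNA-seq libraries of pools of zebrafish embryos were analysed. The authors filtered single reads with Trimmomatic and quantified them with Salmon 1.5.1 on the zebrafish reference transcriptome GRCz11. They deposited estimated counts per transcript in one table, and TPM with the length and effective length of each transcript per library. The members and lists were chosen with earlier results of these data known.

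Here the deposited counts were rounded, filtered (filterByExpr, at least 10 counts and 15 in total), scaled with TMM and tested with edgeR 4.0.16 (glmQLFit, glmQLFTest), on quadratic dose ranks and with dose as a factor, with p-values adjusted by Benjamini-Hochberg and a threshold of 0.05. Fold changes come from these fits. Correlations used 100000 permutations. limma 3.58.1 and DESeq2 1.42.0 served as alternatives, with pseudocounts of 0.5 on CPM, and 1 and 0.1 on TPM. The CPM given to limma were scaled by median-of-ratios size factors in place of TMM. That setting thus changed both the scaling and the test. Scripts were tested on simulated data. The labels mark control replicate D as the outlier, but the 39890 transcripts of the study's background were reached by leaving out replicate B, which was done. The protocol text of the labels gives another concentration for the 50 μg/l libraries, and the one in the titles was used.

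The transcripts named are the 3 described, those that share reads with them, and for each of the 3 the transcript with the highest r of log2(CPM + 0.5). The lists fixed for other chaperones and for tissue markers were not analysed here, because the reference tables used here pair symbols with gene identifiers only and the supplementary text used here names few transcripts, so the labelled tissue was not checked against markers. Nothing says that pools of one dose came from separate spawnings, and p-values measure the spread between these pools. The depth, 17.2 to 28 M counts, gives counting errors of 1.44% to 3.62% of the 3 levels, below most of the spread between pools.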

Additional observations from a re-analysis of the deposited data

Results flagged for a closer look

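Control replicate B, which was left out of the 14 libraries and enters only alternative fits, held values above both other controls for some of the transcripts described here. On CPM scaled over all 15 libraries, ENSDART00000002164.9 (*unc45b*) had 34.8 there, against 33.2 and 30.0 in controls D and E. ENSDART00000185615.1, which shares reads with *hspa4b*, had 46.5 CPM there, against 27.2 and 17.6. ENSDART00000188155.1, of the same set, had 12.3 CPM there, against 6.90 and 10.9. In the same library *hspa4b* itself took 71.1% of the counts of its set, and ENSDART00000185615.1 took 22.9%. Single values within groups of 3 libraries were not tested for standing apart.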

How the results depend on the processing

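The *unc45b* trend had a positive fitted difference in all 26 alternatives, but passed 0.05 in 5 of them, with adjusted p-values of 0.000127 in DESeq2, 0.0475 with RLE size factors, 0.0430 with limma on log2(CPM + 0.5), 0.0467 with all 15 libraries and 0.0339 without 10 μg/l replicate C. Its adjusted p-value (0.0493 in edgeR) was 0.0586 with no filter on low counts, 0.0839 with control replicate B in place of D, 0.0526 with a linear trend, 0.236 with dose as a factor, 0.0644 with limma on log2(TPM + 1), 0.0682 with limma on log2(TPM + 0.1), 0.0557 with summed counts, and 0.0339 to 0.153 with each library left out. DESeq2 moved calls most, with 3486 transcripts past the threshold along the gradient, against 295 in edgeR. It gave the *hspa4b* trend an adjusted p-value of 0.0429 and the *trim101* trend 0.0390, and *unc45b* at 100 against 0 μg/l 0.00364, where edgeR gave 0.208. The *hspa4b* trend difference was negative with limma on log2(TPM + 1) (adjusted p = 0.402) and log2(TPM + 0.1) (0.398). Leaving out each library, the adjusted p-value lay between 0.219 and 0.337 for *hspa4b* and between 0.0808 and 0.298 for *trim101*.

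With the replicate block, *unc45b* had an adjusted p-value of 0.130 (edgeR), *hspa4b* 0.257 and *trim101* 0.228, and 12 transcripts passed along the gradient. The letters were not taken to pair libraries in the main fits. Deviations of same-letter libraries correlated over 0.1 in 7 of 14 pairs (mean r = 0.0998), against 13 of 64 pairs with other letters (mean r = −0.0217). Whether the letters pair libraries was not tested. At single doses the block left 0 calls (edgeR; 837, 1550, 2374 and 3083 transcripts at an unadjusted p-value under 0.05 at 5, 10, 50 and 100 μg/l), where DESeq2 without it gave 145, 656, 1438 and 1148, and limma on log2(CPM + 0.5) 5, 25, 38 and 60.

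Small differences at single doses changed sign, none of them past the threshold. *unc45b* at 10 μg/l was −0.0048 on the log2 scale with RLE size factors, −0.0042 with DESeq2, −0.054 with limma on log2(CPM + 0.5), −0.033 with all 15 libraries, −0.022 with control replicate B in place of D, −0.051 and −0.072 with limma on log2(TPM + 1) and log2(TPM + 0.1), −0.013 with summed counts and −0.29 to 0.19 with each library left out. *hspa4b* with all 15 libraries was 0.067, 0.0065 and 0.091 at 5, 10 and 50 μg/l, and with control replicate B in place of D 0.15, 0.091 and 0.18. With summed counts it was 0.0037 at 5 and 0.027 at 50 μg/l, and at 100 μg/l it was −0.062 and −0.064 on the TPM scales. With each library left out, *hspa4b* lay between −0.098 and 0.030 at 5 μg/l and between −0.074 and 0.055 at 50 μg/l, and *trim101* between −0.21 and 0.033 at 5 μg/l and between −0.043 and 0.36 at 10 μg/l.

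The number of transcripts past the threshold along the gradient (295, 175 higher and 120 lower) was 529 with limma on log2(CPM + 0.5), 3486 with DESeq2, 162 with no filter, 56 with control replicate B in place of D, 679 with a linear trend, 30 with dose as a factor, 1164 with limma on log2(TPM + 1) (380 higher, 784 lower) and 1108 on log2(TPM + 0.1), and with each library left out from 56 (100 μg/l replicate C out) up to 793 (100 μg/l replicate E out). For *unc45b* with *hspa4b*, r was 0.33 on log2(TPM + 1), 0.44 with summed counts, 0.46 centred by dose and 0.66 to 0.79 with each library left out. *unc45b* with *trim101* had −0.39 centred by dose. *hspa4b* with *trim101* had −0.67 on log2(TPM + 1) (permutation p = 0.00897) and −0.20 centred by dose. The cause of these changes was not tested. With 2 controls and 3 libraries a dose, the spread between pools was above the counting error in most groups.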
